A study of Homo sapiens with 6 samples.

Results

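Semaphorins, plexins and neuropilins are the genes of a signalling system that cells use to steer movement, adhesion and shape. They were taken by symbol from the count table of HCT116 cells, a human colorectal carcinoma line, as every semaphorin of classes 3 to 7, every plexin and both neuropilins. This gave 31 of the 20020 genes of the table, of which 20 are semaphorins, 9 plexins and 2 neuropilins. Of the 31, 26 had enough counts to be tested.

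The samples are 3 libraries of CAD-KO2 cells and 3 of sgVec cells, all irradiated (IR) with 8 Gy and collected 24 h later, and here called CAD-KO2+IR and sgVec+IR. CAD is caspase-activated DNase, a nuclease that cuts DNA in apoptosis and is encoded by the gene DFFB. The CAD-KO2 line carries the lentiCRISPRv2 vector with 1 of the study's guides against CAD, and the sgVec line carries the vector as a control, so both groups hold the vector and both were irradiated. A single stable knockout line was sequenced, and the 6 libraries include none without IR, so what guide, line and knockout each contribute cannot be told apart. The labels do not say whether the 3 libraries of a group came from separate cultures, and the p-values therefore measure the spread between these libraries, which may be technical.

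Class 3 semaphorins are secreted, while the vertebrate semaphorins of classes 4 to 6 span the membrane and SEMA7A is held by a lipid (GPI) anchor. Plexins are the receptors that carry the signal into the cell, where their cytoplasmic part acts on small GTPases. Most class 3 semaphorins do not bind plexins well on their own and use a neuropilin as co-receptor, and neuropilins also bind the growth factor VEGFA. In carcinomas this system is known for its part in vessel growth, invasion and the traffic of immune cells.

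The libraries summed to between 14032994 and 19574144 counts on genes, with every CAD-KO2+IR library deeper than every sgVec+IR library. DFFB, the targeted gene, stood at 10.03, 10.1 and 12.4 CPM (counts per 1e6 counts, scaled by TMM) in CAD-KO2+IR replicates 1 to 3 and at 21.8, 22.9 and 20.9 CPM in sgVec+IR, lower in every CAD-KO2+IR library, with a log2 fold change of −1.02 and an adjusted p of 0.550 (edgeR). It was called lower in 3 of 18 alternative fits, by DESeq2, the study's tool (adjusted p = 0.000458), by limma-voom with sample weights (adjusted p = 0.000135) and by edgeR without the 2 libraries that stand apart, sgVec+IR replicate 3 and CAD-KO2+IR replicate 2 (adjusted p = 1.64e-07), and its log2 fold change ran from −1.11 to −0.92 over the 18. Of 5 epithelial markers, all were counted well, with a sum of 2751 to 3918 CPM in CAD-KO2+IR against 2073 to 4007 CPM in sgVec+IR. Of 4 markers of endothelial cells, which are rich in neuropilins and plexins, 1 had enough counts to be tested (VWF), and their sum ran from 0.685 to 1.94 CPM against 2.69 to 6.07 CPM, lower in each CAD-KO2+IR library, and its part in the members' values was not tested. None of 4 haematopoietic markers was testable, with sums of at most 0.626 CPM. Of 4 fibroblast markers only COL1A1 was testable, with DCN and LUM at 0 in all 6 libraries (sums of 25.5 to 38.7 against 10.9 to 47.9 CPM). Of 4 neural markers, MAP2 and RBFOX3 were testable, with sums of 16.4 to 19.2 against 13.8 to 29.7 CPM.

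One library of each group stood apart from its partners. In log2 CPM over the tested genes, sgVec+IR replicates 1 and 2 correlated at 0.996 (Pearson), but at 0.912 and 0.908 with replicate 3. That library lacked counts for 7561 genes, and the others for 4577 to 5232. CAD-KO2+IR replicate 2 correlated at 0.973 and 0.979 with its partners, which correlated at 0.996 with each other. Results that rest on these libraries are given with and without them.

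No member passed the test. A call needed a fold change of at least 1.5 and a Benjamini-Hochberg adjusted p under 0.05 in the quasi-likelihood test of edgeR, and 0 of the 26 tested members were called higher and 0 lower in CAD-KO2+IR. Over all 12925 genes tested the same rule called 0.00774% higher and 0.0232% lower, or 0.0309% in either direction, so few calls were made anywhere in the table. DESeq2 also called 0 members in either direction, against 0.170% of all genes higher and 0.193% lower, or 0.364% in all. Where the p was left unadjusted and the 1.5-fold limit was kept, 2 members were higher, the secreted ligand SEMA3A and the co-receptor NRP1, and 0 were lower, in edgeR as in DESeq2. The background of that looser rule was 0.766% higher and 1.42% lower in edgeR, or 2.18% in either direction, and 0.681% higher and 1.44% lower in DESeq2. SEMA3A and NRP1 were also the 2 members whose 3 CAD-KO2+IR libraries all lay above all 3 sgVec+IR libraries, and for no member did they all lie below. Among all genes the groups did not overlap for 5.23% upwards and for 5.01% downwards, or 10.2% in all, so the 2 of 26 members are near that background. In bulk RNA a change in the number of cells that express a gene and a change in RNA per cell cannot be told apart.

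The median log2 fold change of the 26 members, as CAD-KO2+IR over sgVec+IR, was −0.06, beside −0.01 for all genes tested. It was positive for 11 members and negative for 15, and ran from −0.49 for SEMA3B to 1.84 for NRP1. Estimates within a role were mostly small. The 5 tested class 4 semaphorins lay between −0.26 and −0.06, the 3 tested plexins of type A between 0.03 and 0.29 and the 3 plexins of type B between −0.24 and −0.05, and the 95% interval of each of these members included 0. Intervals were wide for some, such as −1.54 to 2.11 for PLXNA2. The sign of type A was not stable, as PLXNA1, PLXNA2 and PLXNA3 were at −0.22, −0.26 and −0.19 without sgVec+IR replicate 3.

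**Figure D1:**
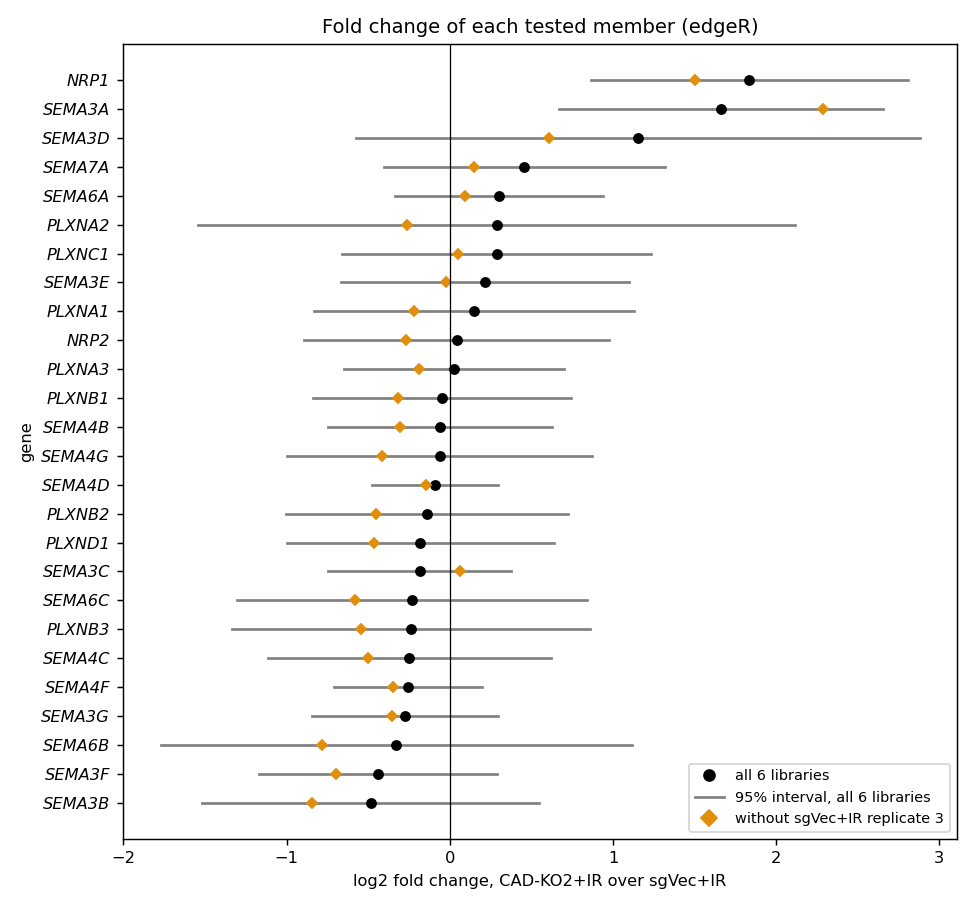
Log2 fold change (x axis, CAD-KO2+IR over sgVec+IR) of each of the 26 tested members (y axis), from edgeR. Black points are estimates from all 6 libraries, grey lines their 95% intervals and orange diamonds the estimates without sgVec+IR replicate 3. NRP1 (1.84) and SEMA3A (1.66) are the members whose intervals lie above 0.

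The ligand SEMA3A (ENSG00000075213.11) repels growing axons and acts on vessels and immune cells through NRP1 and plexins of type A. The gene lies on the reverse strand at chr7:83955777-84492724 of GRCh38. Replicates 1 to 3 of CAD-KO2+IR held 643, 957 and 592 counts of it, and those of sgVec+IR 120, 131 and 306. This is 34.9, 50.5 and 33.7 CPM against 7.34, 8.97 and 21.6 CPM. The mean was 39.7 ± 9.36 CPM (SD, n = 3) in CAD-KO2+IR and 12.6 ± 7.80 CPM (SD, n = 3) in sgVec+IR. The groups did not overlap, but sgVec+IR replicate 3, the library that stands apart, was the highest of its group, and CAD-KO2+IR replicate 2 the highest of all. The log2 fold change was 1.66 with a standard error of 0.420 and a 95% interval of 0.67 to 2.66, a 3.16-fold difference with an unadjusted p of 0.00551 and an adjusted p of 1.0 (edgeR). Without sgVec+IR replicate 3 the log2 fold change was 2.29 and SEMA3A was called (adjusted p = 0.0301, edgeR), where the same rule called 0.0837% of 13141 genes higher.

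The neuropilin NRP1 (ENSG00000099250.18) is the co-receptor through which SEMA3A acts and also binds VEGFA. It lies on the reverse strand at chr10:33177492-33336262 of GRCh38. The CAD-KO2+IR libraries held 156, 178 and 162 counts of it and the sgVec+IR libraries 70, 29 and 16, or 8.45, 9.38 and 9.22 CPM against 4.28, 1.99 and 1.13 CPM. The CAD-KO2+IR libraries were close together, at 9.02 ± 0.497 CPM (SD, n = 3), while the sgVec+IR libraries spread widely, at 2.46 ± 1.63 CPM (SD, n = 3), with replicate 3 the lowest. The log2 fold change was 1.84 with a standard error of 0.409 and a 95% interval of 0.87 to 2.81, a 3.57-fold difference with an unadjusted p of 0.00291 and an adjusted p of 0.848 (edgeR). In DESeq2 it was 1.87 with an adjusted p of 0.0938. Without sgVec+IR replicate 3 it was 1.5 with an adjusted p of 0.217 (edgeR), and without sgVec+IR replicate 1, the highest of its group, it was 2.53.

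SEMA3A and NRP1 depended on sgVec+IR replicate 3 in opposite ways. That library had more SEMA3A and less NRP1 than its partners, so leaving it out raised the first fold change and lowered the second. Without it and CAD-KO2+IR replicate 2, 2 libraries remained in each group, at 34.3 against 8.15 CPM on average for SEMA3A and 8.84 against 3.13 CPM for NRP1. Both genes were then called higher, at log2 fold changes of 2.08 (adjusted p = 8.32e-18, edgeR) and 1.47 (adjusted p = 4.59e-06, edgeR), in a fit that called 1.06% of 13059 genes higher and 2.30% lower. The libraries left out were those that correlated least with their partners. The p-values of this fit thus measure the spread of libraries kept for their agreement and may be too small. Weighting libraries by their agreement in limma-voom also called both (log2 fold changes 2.08 and 1.59, adjusted p = 7.95e-07 and 0.00107, limma), against 1.64% of all genes called higher and 3.51% lower. The weights were 0.0404 for sgVec+IR replicate 3 and 0.154 for CAD-KO2+IR replicate 2. sgVec+IR replicates 1 and 2 had 3.76 and 3.54. CAD-KO2+IR replicates 1 and 3 had 1.79 and 6.75, so most of the weight of that group lay on replicate 3. Over 18 alternative fits SEMA3A was called in 4 and NRP1 in 2, and both fold changes stayed positive in all of them.

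The second neuropilin, NRP2 (ENSG00000118257.17, forward strand, chr2:205681990-205798133), prefers other class 3 ligands such as SEMA3F and SEMA3C. It stood at 3.90, 3.48 and 5.01 CPM in CAD-KO2+IR against 5.32, 4.59 and 1.97 CPM in sgVec+IR, and the groups overlapped. Its log2 fold change was 0.04 with a 95% interval of −0.89 to 0.98, which does not exclude a change of nearly 2-fold in either direction. Per kilobase of exon, the level of NRP1 over that of NRP2 was 2.61, 3.25 and 2.22 in CAD-KO2+IR and 0.970, 0.522 and 0.689 in sgVec+IR. NRP1 thus had the higher level per length of the pair in each CAD-KO2+IR library. It had the lower in sgVec+IR replicates 2 and 3 and a near equal one in replicate 1, from 70 NRP1 and 87 NRP2 counts. The ratio reuses the NRP1 values given above and is not a separate result. Both neuropilins were scarce transcripts, with mean levels over the 6 libraries of 0.498 and 0.291 CPM per kilobase.

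**Figure D2:**
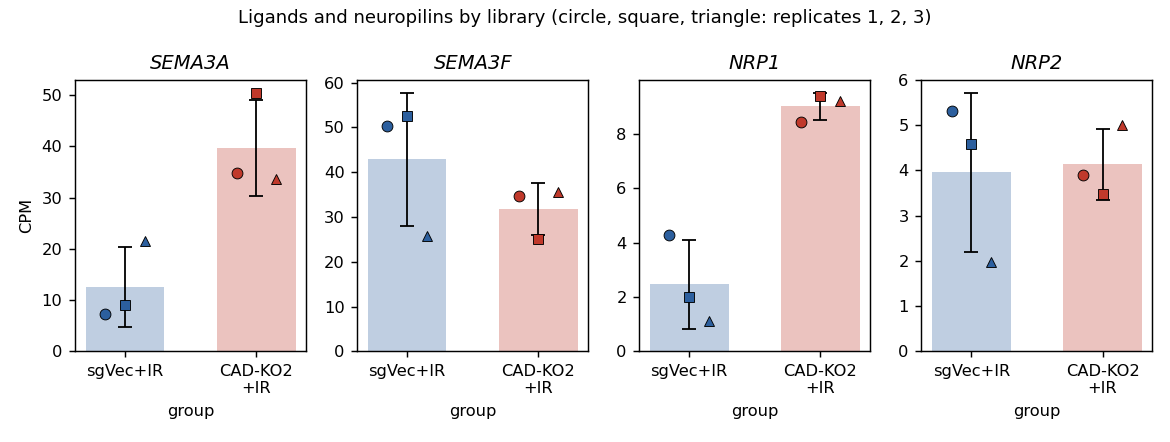
CPM (y axis, from 0) of the ligands SEMA3A and SEMA3F and of both neuropilins in sgVec+IR (blue) and CAD-KO2+IR (red). Bars are means of 3 libraries, error bars SD, and circles, squares and triangles replicates 1 to 3. The groups are apart for SEMA3A (33.7 CPM and above against 21.6 CPM and below) and NRP1 (8.45 CPM and above against 4.28 CPM and below), and overlap for SEMA3F and NRP2.

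Among the other secreted ligands, SEMA3C (ENSG00000075223.14, chr7:80742538-80922359) had the highest level, 14.8 CPM per kilobase on average. It stood at 76.5, 103 and 80.3 CPM in CAD-KO2+IR against 85.4, 80.9 and 129 CPM in sgVec+IR, with a log2 fold change of −0.18 (95% interval −0.75 to 0.38). The highest library of each group was the one that stands apart. SEMA3F (ENSG00000001617.12, chr3:50155045-50189075), a ligand of NRP2 described as a tumour suppressor, stood at 34.6, 25.0 and 35.5 CPM in CAD-KO2+IR against 50.3, 52.6 and 25.8 CPM in sgVec+IR. Its log2 fold change was −0.44 (95% interval −1.17 to 0.29), and here the lowest library of each group was the one that stands apart. With both of these left out SEMA3F was at −0.55 (adjusted p = 8.83e-06, edgeR), under the 1.5-fold limit and so not a call. With only sgVec+IR replicate 3 left out it was at −0.70 (adjusted p = 0.311, edgeR). Against SEMA3C, per kilobase, SEMA3A stood at 0.305, 0.328 and 0.281 in CAD-KO2+IR and at 0.0575, 0.0741 and 0.112 in sgVec+IR, so it remained the scarcer ligand in each library. SEMA3A made up 13.2%, 17.6% and 12.7% of the summed class 3 level per kilobase in CAD-KO2+IR and 2.55%, 3.04% and 7.27% in sgVec+IR.

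The remaining class 3 ligands did not separate the groups. SEMA3B, SEMA3D, SEMA3E and SEMA3G had log2 fold changes of −0.49, 1.15, 0.22 and −0.28, with 95% intervals that include 0. The value of SEMA3D rests on few counts, 27, 19 and 30 against 13, 15 and 0, and fell to 0.61 without sgVec+IR replicate 3, which held the 0. SEMA3B stood at 12.5, 7.64 and 9.62 CPM against 16.0, 19.6 and 5.85 CPM. It was the member with the lowest fold change, chosen after its values were seen, and was called lower without both libraries that stand apart (log2 fold change −0.67, adjusted p = 0.000701, edgeR) and in limma-voom with sample weights (−0.79, adjusted p = 0.00273).

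The most abundant membrane-bound ligand was SEMA6B (ENSG00000167680.17, reverse strand, chr19:4542593-4559808), which binds plexins of type A without a neuropilin, at 30.7 CPM per kilobase. It stood at 161, 67.2 and 132 CPM in CAD-KO2+IR against 206, 207 and 38.9 CPM in sgVec+IR. sgVec+IR replicate 3 held less than any other library and its partners the most, and the log2 fold change of −0.33 had a wide 95% interval of −1.77 to 1.11. With sample weights in limma-voom it was −0.59 and SEMA6B was called lower (adjusted p = 0.00469). SEMA7A (ENSG00000138623.10, chr15:74409289-74433958), the anchored ligand that signals through integrin beta 1 and PLXNC1, stood at 47.0, 30.6 and 44.8 CPM against 39.3, 34.4 and 15.2 CPM (log2 fold change 0.46, 95% interval −0.41 to 1.32). SEMA4B (ENSG00000185033.15, chr15:90160604-90229679) stood at 51.5, 38.2 and 53.2 CPM against 56.5, 61.1 and 31.0 CPM (log2 fold change −0.06, 95% interval −0.74 to 0.63). For each of these 3 genes the library that stands apart was the lowest of its group in both groups. With both of these left out SEMA6B was at −0.49 (adjusted p = 2.28e-07), SEMA7A at 0.32 (adjusted p = 0.0117) and SEMA4B at −0.16 (adjusted p = 0.186, edgeR). These values are under the 1.5-fold limit. The other tested members of classes 4 and 6 were SEMA4C, SEMA4D, SEMA4F, SEMA4G, SEMA6A and SEMA6C, and their log2 fold changes ran from −0.26 for SEMA4F to 0.30 for SEMA6A.

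Among the receptors PLXNB2 (ENSG00000196576.16, chr22:50274979-50307627), a receptor of class 4 semaphorins, had by far the most transcript, 72.8 CPM per kilobase. It stood at 599, 357 and 552 CPM in CAD-KO2+IR against 692, 685 and 284 CPM in sgVec+IR, with a log2 fold change of −0.14 (95% interval −1.0 to 0.72). Its share of the summed plexin level per kilobase varied little, from 63.4% to 65.9% in CAD-KO2+IR and from 66.6% to 68.5% in sgVec+IR. PLXNA1 (ENSG00000114554.12, chr3:126988594-127037392), which pairs with NRP1 as a receptor of SEMA3A, stood at 200.2, 145 and 190.4 CPM against 204, 213 and 66.6 CPM (log2 fold change 0.15, 95% interval −0.83 to 1.13). PLXND1 (ENSG00000004399.13, chr3:129555175-129606818), the receptor of SEMA3E in vessels, stood at 84.4, 49.6 and 68.7 CPM against 88.9, 98.0 and 42.9 CPM (log2 fold change −0.18, 95% interval −1.0 to 0.64). With both libraries that stand apart left out, PLXNB2 was at −0.25 (adjusted p = 0.000348), PLXNA1 at −0.0875 (adjusted p = 0.346) and PLXND1 at −0.28 (adjusted p = 0.00979, edgeR). These values are under the 1.5-fold limit. The groups overlapped for all 8 tested plexins, of which PLXNA2, PLXNA3, PLXNB1, PLXNB3 and PLXNC1 had log2 fold changes from −0.24 to 0.29. The positive value of PLXNA2 (0.29) turned to −0.26 without sgVec+IR replicate 3, in which it had no count against 43, 23, 42, 30 and 43 counts in the other libraries.

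**Figure D3:**
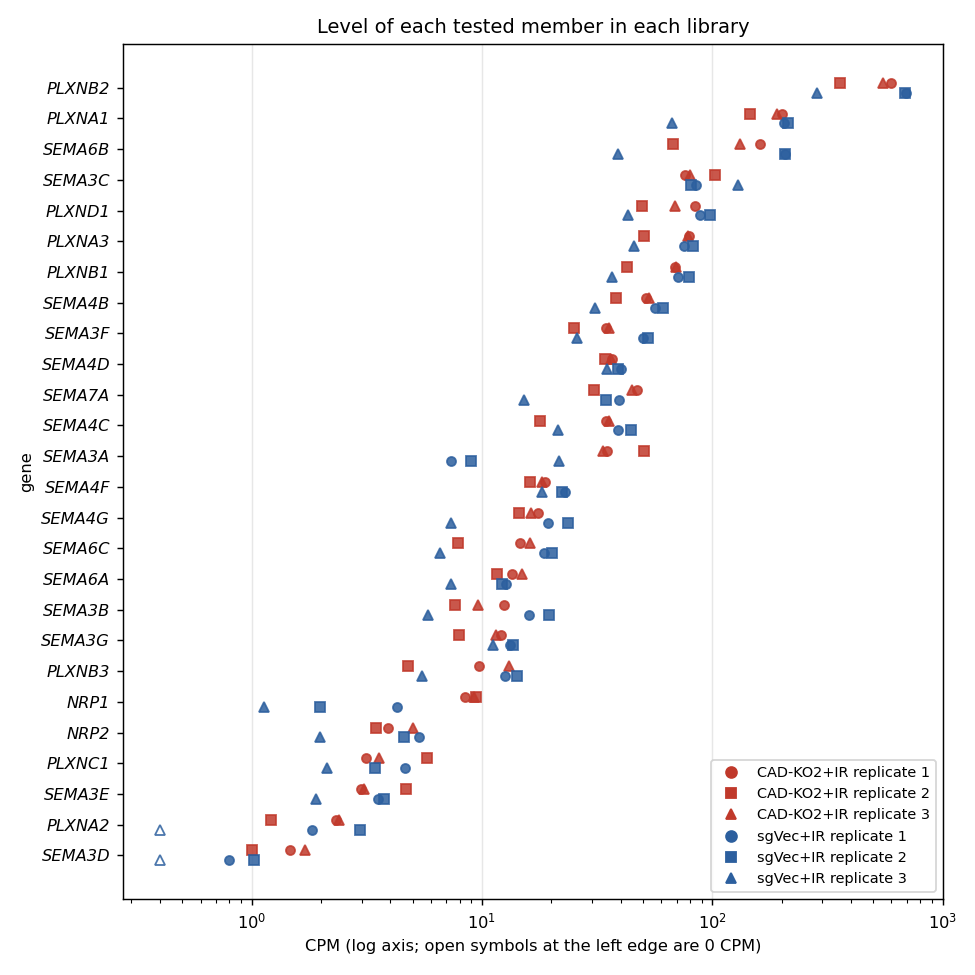
CPM (x axis, log scale) of each tested member (y axis, ordered by mean CPM) in the 3 CAD-KO2+IR libraries (red) and the 3 sgVec+IR libraries (blue). Open symbols at the left edge are libraries with 0 counts. The blue triangle, sgVec+IR replicate 3, is the lowest of the 6 for 18 of 26 members, while SEMA3A and NRP1 have all red symbols to the right of all blue ones.

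The 5 members without enough counts were SEMA4A, SEMA5A, SEMA5B, SEMA6D and PLXNA4. SEMA5A and SEMA6D had no count in any library, which allows levels up to 0.0540 CPM in the CAD-KO2+IR group and 0.0670 CPM in the other, taking 3 counts of each group's summed total. SEMA4A had 7, 1 and 7 counts against 5, 5 and 4, PLXNA4 had 9, 2 and 4 against 2, 6 and 0, and SEMA5B had 2, 3 and 1 against 0, 1 and 0. At these levels a difference was not detectable.

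Most members were lower in the library of each group that stands apart. On the scale of log2(CPM + 0.5), 24 of 26 members were below the mean of their partners in sgVec+IR replicate 3, with SEMA3A and SEMA3C as the 2 exceptions, and 21 of 26 in CAD-KO2+IR replicate 2. The median deviation of the members was −1.05 and −0.48, against −0.11 and 0.00 for all genes tested. Both deviations ran along the base composition of the transcripts. Over the 26 members, which share the same 6 libraries and whose GC content ran from 34.9% to 67.7%, the deviation of sgVec+IR replicate 3 correlated with the GC content of the longest transcript at r = −0.53 (Spearman −0.53), and that of CAD-KO2+IR replicate 2 at r = −0.78 (Spearman −0.76). Over all 12913 tested genes with a GC value the correlations were −0.70 and −0.80. SEMA3A, at 36.7% GC, deviated by 1.36 in sgVec+IR replicate 3, NRP1, at 44.7%, by −1.08, and SEMA6B, at 67.7% the most GC-rich member, by −2.39. Other members of low GC content did not follow this order. SEMA3D, at 34.9% and with no count in that library, deviated by −1.49, and SEMA3E, at 38.0%, by −0.79. The part of base composition in the differences between groups was not tested beyond a fit with an offset for the GC trend of each library. In that fit, added after seeing the data, SEMA3A was called (log2 fold change 1.77, adjusted p = 0.0134, edgeR), NRP1 was not (1.81, adjusted p = 0.234), and 0.155% of all genes were called higher and 0.170% lower.

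As examples of composition only, the middle 90 coding bases of the longest coding exon of SEMA3A, NRP1 and SEMA6B are given from GENCODE 29 on GRCh38. They are read 5′ to 3′ on the reverse strand where all 3 genes lie, with G and C in capitals. The SEMA3A stretch is in exon 17 at chr7:83961556-83961645, that of NRP1 in exon 10 at chr10:33213507-33213596 and that of SEMA6B in exon 17 at chr19:4544022-4544111.
SEMA3A: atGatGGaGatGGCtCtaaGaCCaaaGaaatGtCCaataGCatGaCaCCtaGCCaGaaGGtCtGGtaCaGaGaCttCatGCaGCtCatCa
NRP1: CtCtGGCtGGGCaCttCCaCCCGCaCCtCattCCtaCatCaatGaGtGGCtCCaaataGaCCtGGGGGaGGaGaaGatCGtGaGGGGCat
SEMA6B: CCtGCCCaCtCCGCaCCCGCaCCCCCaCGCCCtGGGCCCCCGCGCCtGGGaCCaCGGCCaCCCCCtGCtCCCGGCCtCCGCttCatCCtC
G and C make up 41, 51 and 71 of the 90 bases. Over the whole coding sequence they make up 43.8% in SEMA3A, 49.3% in NRP1 and 69.0% in SEMA6B. A stretch need not track the deviation of its gene. The printed stretches go in the order of their genes' deviations in sgVec+IR replicate 3 (1.36, −1.08 and −2.39). The stretch of SEMA3C, not printed, holds 52 of 90, close to the 51 of NRP1. Yet SEMA3C deviated by 0.63 in sgVec+IR replicate 3 and NRP1 by −1.08.

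Gene position and overlap were also read for the members. SEMA3C, SEMA3E, SEMA3A and SEMA3D all lie on chromosome 7. Of the genes within 2 Mb of SEMA3A, 3 were tested, PCLO, SEMA3E and SEMA3D, with log2 fold changes of 0.18, 0.22 and 1.15. Around NRP1, 10 genes were tested, with log2 fold changes from −0.11 to 0.79 and a median of 0.12, the highest being ZEB1, a repressor of epithelial genes, while ITGB1 was at 0.28. In 4 cases a member overlaps another gene of the table, PLXNA3 with LAGE3, PLXNC1 with CEP83 and SEMA4G with MRPL43 on opposite strands and PLXNB3 with SRPK3 on the same strand, and since the strand setting of the counting is not given, reads of these pairs may not be separable. NRP1 overlaps an antisense gene and a small RNA gene that are not in the table, and SEMA3A overlaps no annotated gene.

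No partner gene of the system was called with all 6 libraries in edgeR. Of 54 other pathway genes listed, 45 were tested and 0 were called in either direction by edgeR, with 22 positive and 23 negative log2 fold changes and a median of −0.01. At an unadjusted p under 0.05 and any fold there was 1 (FARP1), against 2.85% of all genes tested. The groups did not overlap for 5 of the 45, with MICAL2 higher and VEGFA, DPYSL2, CDK5 and FARP1 lower in CAD-KO2+IR, against 10.2% of all genes. Among VEGF ligands and receptors 4 of 8 were tested. VEGFA, the growth factor that binds NRP1, stood at 44.7, 35.5 and 41.3 CPM against 47.9, 51.1 and 45.1 CPM (log2 fold change −0.25, adjusted p = 1.0, edgeR), with all CAD-KO2+IR libraries below all sgVec+IR libraries. KDR, its main signalling receptor, had 9, 6 and 12 counts against 26, 7 and 0 and was not tested, and FLT1 had no count in any library. Of 12 co-receptors and other semaphorin receptors 8 were tested. MET, the receptor tyrosine kinase that associates with plexins of type B, had a log2 fold change of −0.03 (341, 454 and 347 CPM against 328, 316 and 519 CPM). ERBB2, another partner of those plexins, had one of −0.13 (106, 64.8 and 100.2 CPM against 111, 116 and 70.6 CPM).

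Of 34 genes for processing and cytosolic signalling 33 were tested. FURIN, the protease that cleaves class 3 semaphorins, stood at 97.0, 47.8 and 87.2 CPM against 104, 112 and 29.7 CPM (log2 fold change −0.09, adjusted p = 1.0, edgeR). FARP1, an exchange factor for small GTPases that associates with plexins of type A, was the gene of these lists with an unadjusted p under 0.05. It stood at 64.3, 63.1 and 62.2 CPM in CAD-KO2+IR against 79.1, 81.5 and 89.9 CPM in sgVec+IR, and its log2 fold change was −0.40 (standard error 0.150, an unadjusted p of 0.0314 and an adjusted p of 1.0, edgeR), which is under the 1.5-fold limit.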

How the data were processed

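RNA-seq of irradiated HCT116 cells was analysed in 6 libraries, 3 for each group. Total RNA was extracted with Trizol and made into libraries with an mRNA kit, although the labels list the molecule as genomic DNA. The authors cleaned reads with fastp and deposited the raw read counts that featureCounts (version 1.5.0-p3) gave for each gene. The submitters' processing notes list mm10, a mouse build, whereas the table holds human Ensembl genes. The aligner, annotation and strand setting are not given in the sources used here.

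Genes were kept by filterByExpr (minimum count 10, minimum total 15), which left 12925 of 20020. In R 4.3.3, counts were scaled by TMM and compared by edgeR 4.0.16 (quasi-likelihood, legacy set to FALSE), with Benjamini-Hochberg adjustment over all genes tested. Alternatives used DESeq2 1.42.0, which the study used, limma 3.58.1, other normalizations and filters, a replicate block and fits without single libraries. A correction for GC content (lowess span 0.3) was added after seeing the data. CPM are counts over the TMM-scaled size of the tested genes, and levels per kilobase use the exon length of GENCODE 29 on GRCh38, to which 19823 identifiers matched. Limits from 3 counts cover counting error only, because PCR copies were not told apart by molecular identifiers.

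The members, the lists and the tests were chosen with earlier results of these data known. Values per library are given for members with an unadjusted p under 0.05, for those whose groups do not overlap and for the 3 of each class with the highest level per kilobase. VEGFA, KDR, MET, ERBB2 and FURIN are named whatever their values, as are genes of the other lists with an unadjusted p under 0.05 and groups that do not overlap. Scripts were tested on simulated data that held no library standing apart from its group and no trend on GC content. That test therefore does not cover how the fits handle either feature. The main fit did not pair the libraries by replicate number. The correlation of same-numbered deviations was 0.63, −0.69 and −0.52, but the libraries that stand apart carry different numbers, so this cannot decide whether numbers mark pairs.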

Additional observations from a re-analysis of the deposited data

How the results depend on the processing

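Calls depended on the weight of the libraries that stand apart. edgeR called 1 gene higher and 3 lower over the whole table and 0 members. DESeq2 called 22 and 25 genes, limma-voom 0 and 0, limma-voom with sample weights 212 and 454 genes (members 2 higher and 2 lower, other pathway genes 1), the fit without both libraries that stand apart 139 and 301 (members 2 and 1, other pathway genes 1), and the GC correction 20 and 22 (members 1 and 0). At an unadjusted p the counts were 99 and 183 genes, and 2 members higher. Leaving out single libraries gave 0 to 11 genes higher, 0 to 11 lower and 0 to 1 members higher, each highest count without sgVec+IR replicate 3. Other normalizations, filters and dispersion settings changed no call of a member. The other pathway gene called was FES, a kinase, lower in CAD-KO2+IR.

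The replicate block called 0 genes higher and 0 lower and 0 members. The deviations of same-numbered libraries correlated at 0.63, −0.69 and −0.52. The 2 libraries that stand apart carry different numbers and their deviations correlated at 0.71, so these values cannot decide whether same-numbered libraries were handled together.

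Of the 26 members, 11 kept their sign in every alternative and 15 did not, all of them with 95% intervals that include 0. SEMA4G turned to 0.0907 in limma-voom, 0.0444 with the block and 0.0217 with the GC correction. With sample weights, NRP2 turned to −0.0697, PLXNA1 to −0.11, PLXNA3 to −0.0135, PLXNC1 to −0.19 and SEMA3E to −0.24. Without both libraries, NRP2 turned to −0.16, PLXNA1 to −0.0875, PLXNC1 to −0.27 and SEMA3E to −0.26. With single libraries left out, the log2 fold change ran from −0.41 to 0.27 for SEMA4G, from −0.27 to 0.33 for NRP2, from −0.22 to 0.41 for PLXNA1, from −0.26 to 1.02 for PLXNA2, from −0.19 to 0.21 for PLXNA3, from −0.32 to 0.17 for PLXNB1, from −0.45 to 0.0579 for PLXNB2, from −0.57 to 0.0786 for PLXNB3, from −0.0287 to 0.60 for PLXNC1, from −0.47 to 0.0394 for PLXND1, from −0.029 to 0.38 for SEMA3E, from −0.33 to 0.0594 for SEMA3C, from −0.30 to 0.13 for SEMA4B, from −0.50 to 0.0136 for SEMA4C and from −0.58 to 0.028 for SEMA6C. The cause of these changes was not tested. The median of the members ran from −0.29 to 0.14 over the alternatives. Few counts limit NRP1, NRP2, SEMA3D, SEMA3E, PLXNA2 and PLXNC1, and 3 libraries a group limit all values.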

Other observations

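Other families of guidance genes, namely ephrins and Eph receptors, slits and ROBO receptors, and netrins and their receptors, were listed beside the semaphorin system. Of 41 such genes 26 were tested, 0 were called higher or lower by edgeR, and the median log2 fold change was −0.08. At an unadjusted p under 0.05 there were 3 of the 26, against 2.85% of all genes tested. The groups did not overlap for 4 (ROBO1 and SLIT2 higher, EPHB3 and NTN5 lower), against 10.2% of all genes. DESeq2 called 0 of the 26, against 0.170% of all genes higher and 0.193% lower. Limma-voom with sample weights called 6, in either direction, against 1.64% of all genes higher and 3.51% lower. ROBO1, a receptor of slits, had 15, 14 and 16 counts in CAD-KO2+IR and 1, 1 and 0 counts in sgVec+IR (adjusted p = 1.0, edgeR). EPHB3, an Eph receptor of the intestinal crypt, stood at 14.1, 8.65 and 11.8 CPM against 20.4, 24.8 and 18.1 CPM (log2 fold change −0.87, standard error 0.253, adjusted p = 1.0, edgeR). NTN5, a netrin, stood at 1.46, 1.21 and 2.05 CPM against 2.57, 3.29 and 2.89 CPM (log2 fold change −0.89, standard error 0.353, adjusted p = 1.0, edgeR).

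Of the 5 epithelial markers, 2 had positive and 3 negative log2 fold changes, from −0.54 to 0.31, and 0 were called by edgeR. The groups did not overlap for 2 of the 5, against 10.2% of all genes, and 5 genes are too few to compare with that share. KRT18, a keratin of simple epithelia, was the higher one, with 494, 446 and 487 CPM in CAD-KO2+IR against 440.2, 435 and 274 CPM in sgVec+IR (log2 fold change 0.31, adjusted p = 1.0, edgeR). CDH1, the adhesion protein E-cadherin, stood at 66.3, 69.8 and 63.9 CPM in CAD-KO2+IR and 97.6, 99.7 and 93.9 CPM in sgVec+IR, with a log2 fold change of −0.54 (adjusted p = 1.0, edgeR). Only CDH1 of the 5 had an unadjusted p under 0.05 (edgeR), against 2.85% of all genes tested. UNC5D, a netrin receptor, had 27 counts in sgVec+IR replicate 3 and 0 in the other 5 libraries, and was singled out after its values were seen.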
